A study of Rattus norvegicus with 6 samples.

Results

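The cluster of miR-132 and miR-212 comprises 4 mature miRNAs, rno-miR-132-3p, rno-miR-132-5p, rno-miR-212-3p and rno-miR-212-5p, which are both arms of 2 stem-loops. All 4 were found by name among the 763 mature rat miRNAs whose reads were counted in plasma exosomes, and all 4 passed the filter on low counts, as did 404 miRNAs in all. Exosomes, vesicles that cells shed with RNA inside, were pelleted by ultracentrifugation from the blood plasma of male Sprague-Dawley rats of 7 to 8 weeks. Control-exosome (C-exo, 3 libraries) came from rats without remote ischemic pre-conditioning (RIPC). RIPC-exosome (R-exo, 3 libraries) came from rats in the late phase after RIPC, in which rubber bands closed and released the blood flow of both hind limbs in 4 cycles of 5 min ischemia and 5 min reperfusion. In both groups the rats were anesthetized, and blood was drawn after 48 h. The labels do not say whether a library holds 1 rat or several, so p-values measure the spread between these libraries. Vesicles from every tissue mix in plasma, so a level does not name the cell of origin.

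The genes Mir132 and Mir212 lie side by side and are transcribed together from a promoter that CREB, a transcription factor switched on by cAMP and calcium signals, can activate. They are best known in neurons, where neurotrophins and synaptic activity induce them, but are also described in endothelium, in macrophages and in the stressed heart. A stem-loop is cut into a 5p and a 3p arm, of which mostly 1 is kept in the silencing complex and pairs with target transcripts through its seed, bases 2 to 8, while the other is usually degraded. In this cluster the 3p arms are the strands studied as regulators, with Rasa1 and Foxo3 among the targets described for them. The counts hold no measurement of CREB.

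The mature sequences, from RefSeq (rat assembly GRCr8), show which members can act on the same targets. Each is written 5′ to 3′ with its seed in capitals.

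rno-miR-132-3p: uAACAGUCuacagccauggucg

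rno-miR-212-3p: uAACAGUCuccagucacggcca

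rno-miR-132-5p: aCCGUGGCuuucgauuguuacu

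rno-miR-212-5p: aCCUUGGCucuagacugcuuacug

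The 3p arms share 1 seed, and no other miRNA in the count table with a RefSeq sequence holds it (686 of the 763 names matched). Over their 22 bases they are identical at 17 and differ at 5 (A10C, C14U, U17C, U20C and G22A, counted from 1 at the 5′ end with the base of rno-miR-132-3p first), all beyond the seed. The 5p arms have different seeds, with G4U inside it (the base of rno-miR-132-5p first), and no other miRNA of the table shares either. How reads that match several miRNAs were counted is not given in the sources used here.

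In GRCr8 both genes are on the plus strand, with rno-miR-212-5p at chr10:60521771-60521794, rno-miR-212-3p at chr10:60521811-60521832, rno-miR-132-5p at chr10:60522055-60522076 and rno-miR-132-3p at chr10:60522091-60522112. In gene order they fall between Hic1, which is protein-coding, and the long non-coding RNA LOC120095261. The submitters' processing notes name the build rn6, to which these positions do not apply. The Mir132 stem-loop (chr10:60522033-60522133) is shown with its arms in capitals, the 5p arm before the 3p arm, since the results below turn on the balance between them.

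Mir132 stem-loop: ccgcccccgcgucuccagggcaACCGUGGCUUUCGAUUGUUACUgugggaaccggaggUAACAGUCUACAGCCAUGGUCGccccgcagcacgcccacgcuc

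The bases just before that stem-loop (chr10:60521892-60522032, plus strand) are shown because they hold the motif TGACGTCA, the full cAMP response element that CREB binds, in capitals.

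Upstream of Mir132: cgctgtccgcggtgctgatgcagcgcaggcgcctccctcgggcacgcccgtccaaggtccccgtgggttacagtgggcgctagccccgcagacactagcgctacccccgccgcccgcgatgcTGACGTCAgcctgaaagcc

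The motif reads the same on both strands and ends 11 bases before the stem-loop. The stretch shown begins 59 bases after rno-miR-212-3p, so the motif lies downstream of both miR-212 arms and upstream of Mir132. Whether it belongs to the promoter shared by both genes was not tested. Of 33469 rat promoter windows of 300 bases in RefSeq, 1.83% hold it. Those windows are longer than the stretch of 141 bases shown. A match describes the letters and does not show that CREB is bound.

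The libraries held 5484209 to 7531737 counts. Levels are CPM, counts scaled to 1 common library size after TMM normalization, and 3 counts, the floor, amounted to 0.369 to 0.672 CPM. Since a level is a share of counted reads, fewer vesicles of a given origin and fewer copies per vesicle cannot be told apart. C-exo replicate 3 stood apart from its group. The chi-square of its counts per degree of freedom was 5978 and 4769 against C-exo replicates 1 and 2, but 877 to 1791 against the R-exo libraries. Values without it are therefore given for the members, their ratios and the lists. It was singled out from these same counts as the control nearest to R-exo. Leaving it out therefore favours wider differences, and p-values without it are descriptions, not tests of RIPC. C-exo replicates 1 and 2 stood at 1528 from each other, and which of the controls are unusual cannot be told. No pair of libraries was close enough to be 1 library sequenced again.

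All 4 members were rare. They ranked between 316 and 358 by mean CPM among the 404 tested miRNAs, and no library held more than 88 counts of any of them. In R-exo the 3p arms stood higher than in C-exo and the 5p arms lower, with rno-miR-132-3p showing the largest difference, 8.82 ± 3.19 CPM against 3.03 ± 1.81 CPM (SD, n = 3 each). None of the 4 had an adjusted p under 0.05 in edgeR's quasi-likelihood test, and neither did any of the 404 miRNAs (0%), of which 38 had an unadjusted p under 0.05. DESeq2 and limma-voom also called 0 by the adjusted p, with 50 each at an unadjusted p under 0.05. By the criterion of more than a 2-fold difference and an unadjusted p below 0.05, rno-miR-132-3p was called higher in R-exo, as were 1.98% of the tested miRNAs, while 7.43% were called lower and none of the 4 members was among those.

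**Figure D1:**
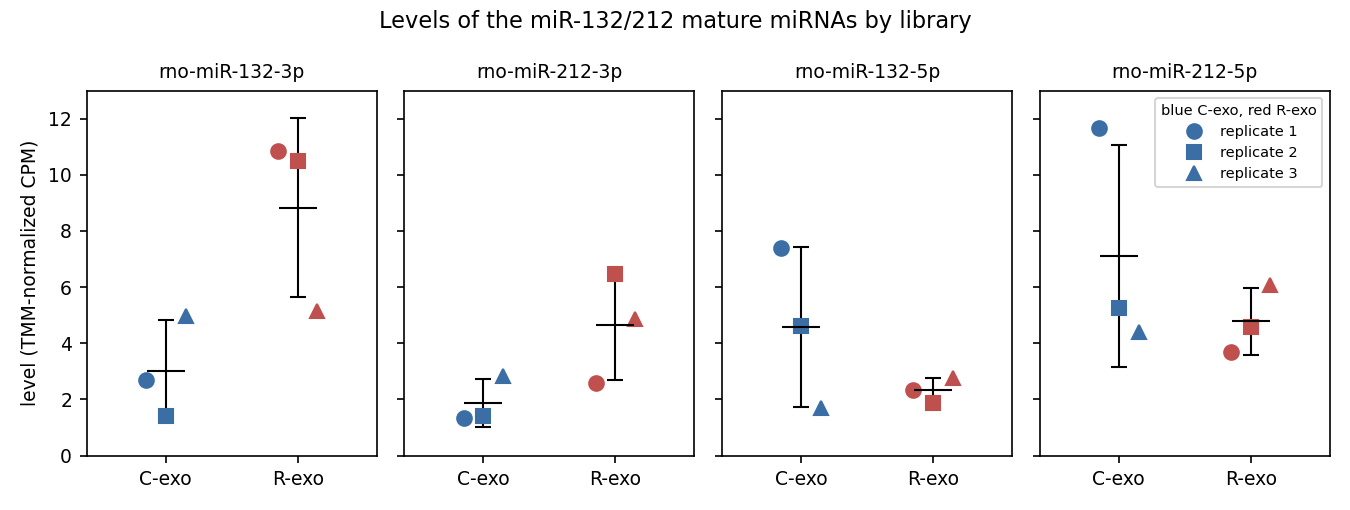
Levels of the 4 mature miRNAs of the miR-132 and miR-212 cluster, in TMM-normalized CPM on the vertical axis, in C-exo (blue) and R-exo (red). Symbols mark replicates 1 (circle), 2 (square) and 3 (triangle), and bars give the mean and SD (n = 3). The 3p arms are low in C-exo replicates 1 and 2, and C-exo replicate 3 lies next to or among the R-exo libraries for all 4 miRNAs.

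rno-miR-132-3p, the arm most often studied in neurons and vessels, was counted 12, 11 and 35 times in C-exo replicates 1, 2 and 3, against 88, 73 and 39 times in the R-exo libraries in the same order. In CPM these were 2.69, 1.41 and 4.98 for C-exo, against 10.8, 10.5 and 5.14 for R-exo. Every R-exo library was above every C-exo library, as for 4.95% of the tested miRNAs, but C-exo replicate 3 and R-exo replicate 3 nearly met. Their counts of 35 (95% exact Poisson interval 24.4 to 48.7) and 39 (27.7 to 53.3) cannot be distinguished at this depth. These intervals, and the Wilson intervals of arm shares given further on, cover counting error only, since the libraries were amplified by PCR and carry no molecular identifiers. The log2 fold change was 1.54 (standard error 0.64, 95% interval 0.10 to 2.98), with an unadjusted p of 0.039 and an adjusted p of 0.46 from edgeR's quasi-likelihood test. The unadjusted p ranked 31 among the 404. Without C-exo replicate 3 the estimate became 2.14 (adjusted p = 0.026 by edgeR), where 31.3% of the 422 miRNAs tested were also called. Without any other library the adjusted p by edgeR was 0.60 to 0.81, and the unadjusted p was over 0.05 without C-exo replicate 1 or 2 or R-exo replicate 1 or 2.

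rno-miR-212-3p, which shares the seed, had the lowest mean level of the members in C-exo, with 6, 11 and 20 counts against 21, 45 and 37 in R-exo. The corresponding levels were 1.34, 1.41 and 2.84 CPM, against 2.59, 6.46 and 4.88 CPM with RIPC. C-exo replicate 3 was above R-exo replicate 1, so the groups overlapped. They also overlapped with RLE and upper quartile scaling. With scaling by library size alone they did not, at 2.66 CPM at most in C-exo and 2.99 CPM at least in R-exo, as for 8.66% of the tested miRNAs under that scaling. The log2 fold change was 1.29 (standard error 0.65, 95% interval -0.17 to 2.76), with an unadjusted p of 0.077 and an adjusted p of 0.47 in the edgeR test. Without C-exo replicate 3 it was 1.75 (unadjusted p = 0.033, adjusted p = 0.081 by edgeR), and without any other library the adjusted p by edgeR was 0.60 to 0.82.

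Summed over the shared seed, the 3p arms held 4.03, 2.82 and 7.82 CPM in the controls, against 13.4, 16.9 and 10.03 CPM with RIPC. The highest control library, again replicate 3, was below the lowest R-exo library. The log2 ratio of the group means was 1.46, and 1.97 without C-exo replicate 3. This sum is given as a description with no test.

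rno-miR-132-5p, the opposite arm of the Mir132 stem-loop, had 33, 36 and 12 counts in C-exo and 19, 13 and 21 in R-exo. Its levels were 7.40, 4.61 and 1.71 CPM, against 2.34, 1.87 and 2.77 CPM with RIPC. C-exo replicates 1 and 2 were the highest of the 6 libraries, and C-exo replicate 3 was the lowest, so the groups overlapped, whereas 7.92% of the tested miRNAs were lower in every R-exo library. The log2 fold change was -0.96 (standard error 0.67, 95% interval -2.47 to 0.56), with an unadjusted p of 0.19 in the edgeR test. Without C-exo replicate 3 it was -1.34 (unadjusted p = 0.051, adjusted p = 0.11 by edgeR), and without C-exo replicate 1 it was -0.54 (unadjusted p = 0.48 by edgeR).

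rno-miR-212-5p differed least, with 52, 41 and 31 counts in C-exo and 30, 32 and 46 in R-exo. Its levels were 11.7, 5.25 and 4.41 CPM in the control libraries, and 3.69, 4.59 and 6.07 CPM after RIPC. A single control library, replicate 1, was higher than all others, and the remaining levels were intermixed. The log2 fold change was -0.56 (standard error 0.58, 95% interval -1.87 to 0.75), with an unadjusted p of 0.36 in the edgeR test, with -0.08 without C-exo replicate 1 and -0.79 without C-exo replicate 3 (adjusted p = 0.28 by edgeR).

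**Figure D2:**
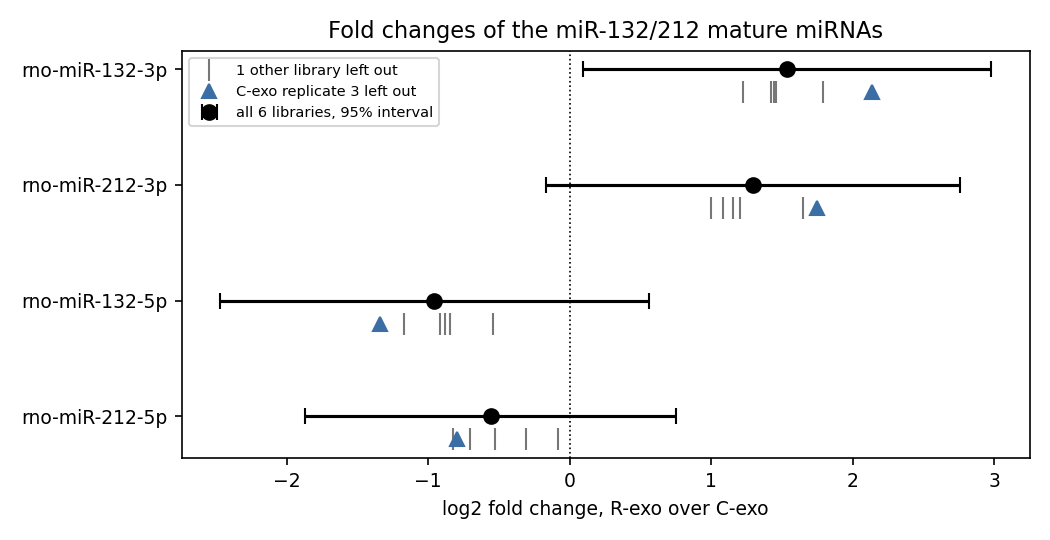
Log2 fold change of R-exo over C-exo (horizontal axis) for the 4 miRNAs of the cluster. Black points with bars are edgeR estimates with 95% intervals from all 6 libraries, grey ticks are fits without 1 other library, and blue triangles are fits without C-exo replicate 3. The estimates of the 3p arms are above 0 and those of the 5p arms below 0 in every fit drawn, and of the 4 intervals only that of rno-miR-132-3p, 0.10 to 2.98, leaves out 0.

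The order of the levels differed between the groups. In C-exo the means were ordered from rno-miR-212-5p (7.10 CPM) through rno-miR-132-5p (4.57 CPM) and rno-miR-132-3p (3.03 CPM) to rno-miR-212-3p (1.87 CPM). In R-exo rno-miR-132-3p came highest (8.82 CPM), followed by rno-miR-212-5p (4.79 CPM), rno-miR-212-3p (4.64 CPM) and rno-miR-132-5p (2.33 CPM). With all libraries, the values of neighbours in the order overlapped in each group. Compared within libraries, rno-miR-212-5p was above rno-miR-132-5p in each C-exo library, and rno-miR-212-3p above rno-miR-132-5p in each R-exo library. The other neighbours did not keep their order in every library. Without C-exo replicate 3, rno-miR-132-5p (4.61 and 7.40 CPM) lay above rno-miR-132-3p (2.69 and 1.41 CPM) in both remaining C-exo libraries, and the other neighbours in C-exo still overlapped. A read covers a whole mature miRNA of 22 or 24 bases, so CPM was compared between miRNAs without a length correction, and differences in adaptor ligation between sequences are not removed by it.

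The balance of the arms was then measured within each library, where no scaling between libraries is needed. In the C-exo mean both stem-loops gave more 5p than 3p reads, and in R-exo the balance lay further to the 3p side. For miR-132, the 3p arm made up 26.7%, 23.4% and 74.5% of the reads of both arms in C-exo replicates 1, 2 and 3. In R-exo replicates 1, 2 and 3 it made up 82.2%, 84.9% and 65.0%. C-exo replicates 1 and 2 stood alone on the 5p side, with Wilson 95% intervals of 16.0% to 41.0% and 13.6% to 37.2%, whereas the interval of C-exo replicate 3 was 60.5% to 84.7%. The group means were 41.5% ± 28.6% in C-exo and 77.4% ± 10.8% in R-exo (SD, n = 3 each).

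For miR-212, the 3p arm held 10.3%, 21.2% and 39.2% of the reads in C-exo and 41.2%, 58.4% and 44.6% in R-exo. Each R-exo library was above each C-exo library, but C-exo replicate 3 and R-exo replicate 1 had overlapping Wilson intervals (27.03% to 52.9% and 28.8% to 54.8%). The group means were 23.6% ± 14.6% and 48.1% ± 9.15% (SD, n = 3 each).

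**Figure D3:**
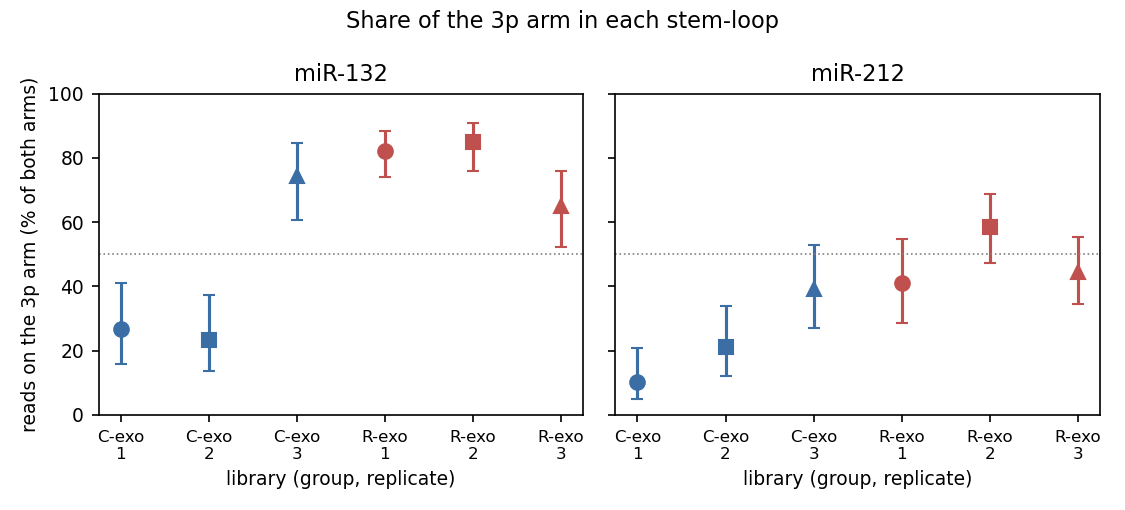
Reads on the 3p arm as a percentage of the reads on both arms of miR-132 (left) and miR-212 (right) in each library, C-exo in blue and R-exo in red. Bars are Wilson 95% intervals and the dotted line marks equal arms. For miR-132 C-exo replicates 1 and 2 lie at 26.7% and 23.4% and the other 4 libraries at 65.0% or more, and for miR-212 the C-exo libraries lie at 39.2% or less.

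On a log2 scale, with 0.5 added to each count, the 3p to 5p ratio of miR-132 was -0.53 ± 1.77 in C-exo and 1.83 ± 0.84 in R-exo (SD, n = 3 each), a difference of 2.36. The exact two-sided permutation test gave p = 0.2. For miR-212 the ratio was -1.83 ± 1.20 in C-exo and -0.11 ± 0.52 in R-exo, a difference of 1.72 with an exact permutation p of 0.1, the smallest that 3 libraries against 3 allow. The ratio of rno-miR-212-3p to rno-miR-132-3p was -0.58 ± 0.51 in C-exo and -0.94 ± 1.01 in R-exo, a difference of -0.36 with an exact permutation p of 0.8, which was smaller than its spread, and its sign rested on R-exo replicate 1, without which it was 0.20. This difference was -0.54, -0.07 and -0.46 without C-exo replicates 1, 2 and 3, and -0.48 and -0.79 without R-exo replicates 2 and 3. After adjustment over these 3 ratios the exact permutation p-values were 0.3, 0.3 and 0.8.

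Both arms passed the filter for 110 stem-loops, miR-132 and miR-212 among them. The difference of the arm ratio between R-exo and C-exo had a median of -0.06 over the 110 and was above 0 in 53 of them, so a shift to the 3p arm was not general. The difference of miR-132 was the largest of the 110 and that of miR-212 ranked 7. Without C-exo replicate 3 the differences were 3.38 and 2.32, and the ranks were 3 and 12. Without C-exo replicate 1 the differences were smaller, at 1.92 for miR-132 and 1.13 for miR-212. The groups did not overlap for 16 stem-loops (14.5%), of which miR-212 was 1 and miR-132 was not. In a limma fit over all 110 ratios, which was added after these values were seen, the unadjusted p was 0.038 for miR-132 (95% interval of the difference 0.18 to 4.55) and 0.040 for miR-212 (0.10 to 3.34). In that limma fit 6.36% of the stem-loops passed an unadjusted p of 0.05, and the adjusted p was 0.51 for both. Without C-exo replicate 3 the adjusted p from limma was 0.013 for miR-132 and 0.026 for miR-212, where 24.5% of the stem-loops were called.

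**Figure D4:**
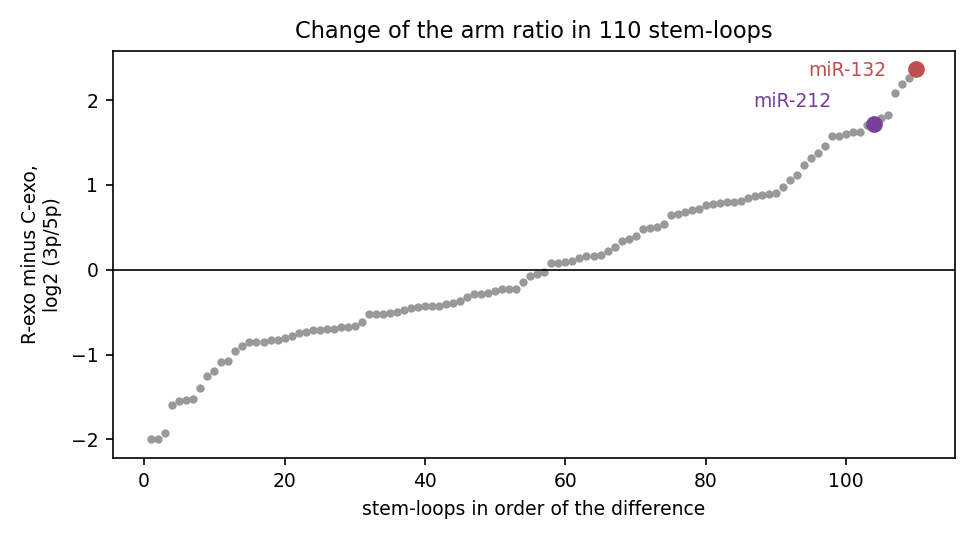
Difference of the mean log2 ratio of 3p to 5p reads between R-exo and C-exo (vertical axis) for the 110 stem-loops with both arms tested, in rising order (horizontal axis). miR-132 (red, 2.36) is at the upper end and miR-212 (purple, 1.72) ranks 7 from the top, while the other stem-loops (grey) spread on both sides of 0.

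Likeness between patterns was measured as the root-mean-square difference of log2 CPM over the 6 libraries after each miRNA was centred on its own mean. Among the members, rno-miR-132-5p and rno-miR-212-5p were the closest (0.38), followed by the 3p arms (0.64), and the arms of a stem-loop were far apart, at 1.54 for miR-132 and 1.08 for miR-212. Of the tested miRNAs outside the cluster, 328 were closer to rno-miR-132-3p than its own 5p arm was, and 35 were closer than rno-miR-212-3p was. To rno-miR-132-5p, 48 were closer than rno-miR-212-5p was, so likeness between equal arms was not particular to the cluster. The 5 most like rno-miR-132-3p were miR-1839-5p (0.39), miR-381-3p (0.41), miR-144-5p (0.42), miR-429 (0.46) and miR-200a-3p (0.47), of which 4 stayed among the nearest 5 without C-exo replicate 3. All 5 were lowest in C-exo replicates 1 and 2, and miR-144-5p is processed from a stem-loop of red cell precursors. miR-381-3p, from the imprinted Dlk1-Dio3 locus, was at 2.02, 1.54 and 7.68 CPM without and 10.2, 8.18 and 8.31 CPM with RIPC, close to the levels of rno-miR-132-3p, and the others were more abundant.

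Lists of other miRNAs that share a setting with the cluster were set beside it, by the same criterion of fold and unadjusted p. Of all 404 tested miRNAs 197 (48.8%) had a log2 fold change above 0, and the median was -0.05. The number of calls in the lists depended on C-exo replicate 3. When it was left out, calls made up 23.7% of the 422 tested miRNAs in the direction of higher R-exo levels and 19.4% in the opposite direction, and the calls in each list below are to be read against these shares. For the other fits whose calls are given below, the share of all tested miRNAs called higher was 6.68% with limma-voom, 4.21% with DESeq2, 2.97% with RLE scaling, 4.46% with library size alone, 1.88% without C-exo replicate 1, 0.714% without C-exo replicate 2, 1.19% without R-exo replicate 2, 1.64% without R-exo replicate 3 and 4.52% without the filter on low counts. Calls of lower levels made up 4.04% without R-exo replicate 1 and 6.02% without the filter.

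Of 15 neuron-enriched or activity-linked miRNAs 10 were tested, with log2 fold changes of -1.72 to 0.89, a median of -0.55 and 3 above 0. The call with all libraries, miR-485-5p, was lower in R-exo (log2 fold change -1.54, standard error 0.59), opposite in direction to rno-miR-132-3p. The list held no call without C-exo replicate 1, R-exo replicate 1 or R-exo replicate 2, and the median was then -0.18, -0.40 and -0.48. Leaving out C-exo replicate 3 gave 1 higher and 4 lower calls, with a median of -0.55. The dendritic miR-134-5p was not called, at -0.30 with all libraries (standard error 0.47). Nor was miR-218a-5p, among the 3 above 0, at 0.16 (standard error 0.40).

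None of 7 inflammation-induced miRNAs was called by edgeR with all libraries and TMM (median 0.06, with 4 above 0 and 3 below), whereas 2 were called higher with limma-voom and 1 without the filter. With C-exo replicate 3 left out there were 2 higher and 1 lower calls (median 0.11), and without R-exo replicate 1 the median was -0.12. miR-146a-5p, which macrophages induce after microbial signals, was at 9059 CPM in C-exo and 9419 CPM in R-exo with all libraries, and miR-146b-5p was at 2993 and 3403 CPM. The more abundant miR-21-5p was at 12996 CPM in C-exo and 26739 CPM in R-exo (log2 fold change 1.04, standard error 0.60). Its C-exo libraries held 6378, 6349 and 26262 CPM, so C-exo replicate 3 lay within the R-exo range of 21927 to 31319 CPM. miR-221-3p was at 862 and 500.2 CPM (log2 fold change -0.79, standard error 0.55).

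Of 14 miRNAs linked to cardiac growth and fibrosis none was called by edgeR with all libraries and TMM, and 11 were above 0 (median 0.60). Once C-exo replicate 3 was left out, 8 were called higher and the median was 1.29. The median was 0.36 without C-exo replicate 1, 0.39 without C-exo replicate 2 and 0.40 without R-exo replicate 2, with 1 called higher in the last. With all libraries limma-voom called 2 higher, as did edgeR without the filter on low counts, and DESeq2 and library size alone each called 1. Leaving out R-exo replicate 3 gave 1 higher call, and leaving out R-exo replicate 1 gave 2 lower calls.

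Of 10 endothelial and angiogenic miRNAs 1, miR-126a-3p, was called higher in R-exo with all libraries (log2 fold change 1.34, standard error 0.52), and the median was 0.19. The list held no call without C-exo replicate 1 (median -0.04), C-exo replicate 2 (median 0.03) or R-exo replicate 3 (median 0.25). There were 4 higher and 2 lower calls without C-exo replicate 3, with a median of 0.55. The median was 0.03 without R-exo replicate 2 and 0.33 without R-exo replicate 1. miR-21-5p, miR-23a-3p, miR-221-3p and miR-222-3p stand in more than 1 of these lists.

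Blood cells shed vesicles into plasma, and centrifugation was used to remove the cells and platelets themselves. Of 4 red cell markers, miR-144-3p and miR-144-5p were called higher in R-exo (log2 fold changes 1.07 and 1.63), whereas miR-486, the most abundant, had 195795, 89943 and 64399 CPM in the controls, against 40875, 68033 and 57599 CPM with RIPC. The median log2 fold change of these 4 was 0.72. Without R-exo replicate 2 none was called (median 0.40), 1 was called without C-exo replicate 2 or R-exo replicate 3, and without C-exo replicate 3 there were 2 higher and 1 lower calls (median 0.96). The fit without the filter on low counts also gave 2 higher and 1 lower. Their summed level was 69273 to 198074 CPM in C-exo and 44536 to 74959 CPM in R-exo. miR-486 made up most of this sum in every library. The other 3 markers had log2 fold changes above 0, with miR-451-5p at 0.37, so the sum does not describe them. The lowest C-exo sum was that of replicate 3, and without it the lowest was 92396 CPM, above every R-exo library.

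None of 6 platelet and leukocyte markers was called by edgeR with all libraries and TMM (median -0.02). With RLE scaling, library size alone, DESeq2, or without C-exo replicate 1 or 3, 1 was called higher, and the median was between -0.22, without C-exo replicate 2, and 0.31, without C-exo replicate 3. Their sum was 28149 to 62995 CPM in C-exo, where replicate 3 was the highest, and 35054 to 59221 CPM in R-exo. No marker of either list was at 0, and the part of blood cells in the levels of the cluster was not tested.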

How the data were processed

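Adaptor-ligated small RNA was amplified and read on a HiSeq instrument. Raw counts of reads per mature miRNA, neither normalized nor pooled, were deposited as 1 table, of which every column was used. The submitters' processing notes name bcl2fastq, BWA and the build rn6. Which miRNA database was used, and how mismatches and shared reads were handled, is not given in the sources used here. Library totals were 5484209 to 7531737.

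Group differences were estimated by edgeR 4.0.16 under R 4.3.3 (filterByExpr with a minimum count of 10 and total of 15, TMM, glmQLFit and glmQLFTest, group as the only term, Benjamini-Hochberg over 404 miRNAs). Standard errors follow from the fold change and its F statistic. Arm ratios were compared by exact permutation tests (scipy 1.17.1, count + 0.5), with 110 stem-loops paired by name. log2 CPM used a prior count of 2. Alternatives were other scalings and filters, DESeq2 1.42.0, limma-voom (limma 3.58.1), a replicate block and each library left out. The fitting steps were tested on simulated data. Figures used matplotlib 3.10.9. Named miRNAs were the members, those sharing a seed, the 5 most like rno-miR-132-3p and, per list, those called or up to 4 of highest CPM. The members and lists were chosen with earlier results of these data known.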

Additional observations from a re-analysis of the deposited data

How the results depend on the processing

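Direction held for all 4 members in every alternative that gave a value, with log2 fold changes of 1.52 to 1.74 for rno-miR-132-3p, 1.22 to 1.42 for rno-miR-212-3p, -1.0 to -0.67 for rno-miR-132-5p and -0.59 to -0.36 for rno-miR-212-5p when all 6 libraries were kept. At 10 counts in every library rno-miR-212-3p was not tested. Among these alternatives the unadjusted p of rno-miR-132-3p was over 0.05 with the replicate block alone, where the log2 fold change was 1.63 (unadjusted p = 0.059, adjusted p = 0.46, edgeR). Its adjusted p was 0.30 to 0.49 (edgeR, DESeq2 or limma). Replicate numbers are shared by different rats and pairs of equal number correlated in their deviations at 0.33, -0.28 and 0.28, so they were not taken as pairs, and the block changed no other call of a member, while it called 2 inflammation-induced and 3 cardiac miRNAs higher in R-exo, of 25 miRNAs called higher among the 404. Leaving out any 1 library gave log2 fold changes of 1.22 to 2.14 for rno-miR-132-3p, with p under 0.05 in 2 of the 6 fits, 0.999 to 1.75 for rno-miR-212-3p, -1.34 to -0.54 for rno-miR-132-5p and -0.82 to -0.08 for rno-miR-212-5p. The ratio of rno-miR-212-3p to rno-miR-132-3p ranged from -0.79 to 0.20 in these fits and turned its sign in 1, without R-exo replicate 1. The log2 ratio of the summed 3p arms was 1.18 to 1.97 with 1 library left out, which was added after the data were seen. The arm ratio difference ranged from 1.79 to 3.38 for miR-132 and from 1.13 to 2.32 for miR-212, and the limma fit over all stem-loops, which returns the same differences of 2.36 and 1.72 by construction, gave both an unadjusted p under 0.05.

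Over the table, 0 miRNAs had an adjusted p under 0.05 with edgeR, DESeq2 or limma-voom, and 38, 50 and 50 had an unadjusted p under 0.05. With each library left out, 0 to 132 passed the adjusted p, and all 132 came without C-exo replicate 3. The criterion of fold and p called 38 miRNAs (8 higher in R-exo), 63 without the filter on low counts, and 15 to 182 with each library left out, the most without C-exo replicate 3. Of the calls, 18 of 33 were higher in R-exo with library size only, where the median log2 fold change was 0.10 against -0.05 under TMM, 12 of 37 with RLE, 27 of 49 with limma-voom and 25 of 38 with the replicate block. The causes were not tested. At 6 to 88 counts, differences between single libraries are limited by counting error.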

Other observations

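The patterns nearest to the other members were looked up after those of rno-miR-132-3p, and these names were chosen after their values were seen. rno-miR-132-5p lay closest to miR-28-3p, with a root-mean-square difference of 0.14 on the log2 scale over the 6 libraries, and then to miR-147 (0.14) and miR-27b-5p (0.16), which had log2 fold changes of -0.79, -1.03 and -0.67. rno-miR-212-3p lay closest to miR-30e-5p (0.30) and miR-29a-3p (0.30), whose log2 fold changes were 0.73 and 0.67. rno-miR-212-5p lay closest to miR-151-3p (0.22) and miR-181d-5p (0.23), at -0.63 and -0.58. Over the whole table, 103 of the 196 tested 3p miRNAs and 85 of the 175 tested 5p miRNAs had a log2 fold change above 0. The mean arm ratio passed from the 5p side in C-exo to the 3p side in R-exo for 4 of the 110 stem-loops, miR-132 among them, and in the opposite direction for 4.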
